A study of Mus musculus with 6 samples.

Results

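Cytosolic nucleic acid sensing genes were examined in bone marrow-derived macrophages (BMMs) from mice with a myeloid knockout of Bub1, a kinase of the mitotic spindle checkpoint. The members were chosen by name and are 10 genes: the RNA helicases Ddx58, Ifih1 and Dhx58, the nucleic acid sensors Zbp1 and Ifi204, the exonuclease Trex1, the adaptor Mavs, the kinases Tbk1 and Ikbke, and the transcription factor Irf3. All 10 were found by symbol among the 15982 genes of the authors' deposited table, and each symbol occurred once. Both groups were primary mouse BMMs, from control mice (Ctrl) or from mice with a conditional knockout of Bub1 in myeloid cells (Bub1 cKO). Both had 3 days of M-CSF, a macrophage growth factor, at 20 ng/ml and then 2 days of M-CSF with 50 ng/ml of RANKL, the cytokine that induces osteoclast formation. There were 3 libraries per genotype, 6 in all, made with a kit that reads the 3' ends of transcripts. The recombinase line, the deleted exons, the alleles that the Ctrl mice carried, and the strain and age of the mice were not given in the sources used here. Nothing in the labels says whether the libraries of a genotype came from separate mice or cultures, so p-values reflect only how these libraries vary, and that variation may be technical.

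Cells detect foreign or misplaced nucleic acid in the cytosol through dedicated receptors. RIG-I (gene Ddx58) and MDA5 (Ifih1) bind double-stranded RNA and engage MAVS on the mitochondrial surface, while LGP2 (Dhx58) is a related helicase that lacks the signalling domains. DNA is sensed chiefly by cGAS, which makes a cyclic dinucleotide that activates STING, and by proteins of the PYHIN family such as AIM2 and p204 (Ifi204). The MAVS and STING routes lead to the kinases TBK1 and IKK-epsilon (Ikbke), which phosphorylate IRF3 and thereby induce type I interferon. The exonuclease TREX1 removes cytosolic DNA, and ZBP1 binds Z-form nucleic acid and links it to cell death. DNA that escapes the nucleus after faulty mitosis is a known ligand of cGAS, and several of the sensor genes are themselves induced by interferon.

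The promoters of the members were searched for the interferon-stimulated response element, because several sensors are interferon-inducible. RefSeq promoter windows of 300 bases (250 before to 50 after the gene start, GRCm38.p6) were matched for 7 members, and Dhx58, Zbp1 and Ifi204 were not matched. The motif searched was GAAA, any 2 bases and GAAA again, on both strands. It occurred in the windows of 2 members, Ddx58 and Ifih1, against 3.44% of all 32851 windows. The stretches of 30 bases that hold the match are shown because these sister genes share the motif. Their test statistics had the same sign, but so did those of all 5 sensors, so the sign is not particular to this pair. Capitals mark the match, and both stretches are written 5′ to 3′ along the minus strand, on which both genes lie.
Ddx58, chr4:40239804-40239833: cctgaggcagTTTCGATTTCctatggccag
Ifih1, chr2:62646206-62646235: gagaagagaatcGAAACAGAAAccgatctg
The match of Ddx58 is on the opposite strand and begins at base 3 counted from the gene start. In Ifih1 it lies on the gene's own strand and begins at base 33. An NF-κB motif (GGGA, any 2 bases and TTCC), also searched on both strands, was in none of the members' matched windows and in 1.47% of all windows. A match is a description of these letters and not evidence of a bound site.

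The authors' deposited table gives 1 expression value per gene and genotype, read here as TPM (length-normalised transcript abundance), so the spread between single libraries cannot be shown. Its columns sum to 999891 in Ctrl and 999954 in Bub1 cKO. A scale without division by length would sum alike, and the file does not say which was used. The order of levels between genes given below depends on which it was. If counts of 3' ends were divided by length, that order may be distorted. The depth of the libraries is unknown. Bub1 itself was at 6.73 TPM in Ctrl cells against 5.32 TPM in knockout cells by the authors' deposited table, with an adjusted p of 0.985; tags outside the deleted exons would still be counted, so this does not check the labels. All 7 macrophage and all 7 osteoclast markers listed were detected in both genotypes. Macrophage markers summed to 2600 and 1220 TPM, with 5 of 7 statistics negative, and Lyz2 made nearly all of the gap. It had 2141 TPM in Ctrl cells against 762 TPM in knockout cells (adjusted p 0.00033 by the authors' deposited table). The other 6 summed to 459 and 458 TPM and none passed, but single markers differed in both directions. Adgre1 (43.6 and 24.4 TPM), Csf1r, Itgam and Fcgr1 had lower values in Bub1 cKO. Cd68 (260 and 306 TPM) and Mertk had higher ones. Osteoclast markers summed to 1869 and 2157 TPM, with 6 of 7 statistics positive and 0 past the threshold; the lowest adjusted p was that of Nfatc1 (0.094 by the authors' deposited table). The 5 erythroid markers found summed to 19.6 and 358 TPM and the 9 neutrophil markers to 95.7 and 232 TPM. All 5 erythroid and all 9 neutrophil statistics were positive. By group values the neutrophil marker Ltf went the other way, at 12.3 TPM in Ctrl against 6.74 TPM in Bub1 cKO (statistic 0.22). Hbb-bs, Hbb-bt and Cxcr2 passed the threshold, with adjusted p of 0.00017, 0.025 and 0.036 by the authors' deposited table. Of the erythroid and neutrophil markers, Alas2, Camp, Elane and Retnlg were listed at 0 in Ctrl and none at 0 in Bub1 cKO. Plasmacytoid dendritic markers summed to 58.5 and 56.0 TPM, and the 3 of T and NK cells found to 0.217 and 0.058 TPM, with Cd3g listed at 0 in Ctrl and Cd3e and Cd8a in Bub1 cKO. Their part in the values below was not tested. In bulk RNA, fewer cells of a type and less RNA per cell cannot be told apart.

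None of the 10 sensing genes passed the threshold between the genotypes in the authors' deposited test. The file's header names the web service RaNA-seq, and the statistical method was not given in the sources used here. At an adjusted p under 0.05 the count was 0 of 10 members, and 29 of all 15982 genes, or 0.181%, passed. At an adjusted p under 0.1 it was again 0, beside 0.275% of all genes. Adjusted p-values of the members ran from 0.923 to 1 by the authors' deposited table. At an unadjusted p under 0.05 there was 1 member, Ddx58, and the share among all genes was 4.81%. The statistic was negative, meaning lower in Bub1 cKO by the test, for 8 of the 10 members and for 50.1% of all genes. The median deposited log2 change was -0.19 for the members and -0.01 for all genes. All 5 sensors (Ddx58, Ifih1, Dhx58, Zbp1 and Ifi204) had a negative statistic, as did 3 of the 5 other members. By the deposited log2 change, 4 of the 5 sensors and 4 of the 5 other members were lower in Bub1 cKO. No test was made on these counts.

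On the TPM scale the members' levels by the authors' deposited table ran from 1.501 to 60.8 in Ctrl and from 0.195 to 75.4 in Bub1 cKO. Tbk1 and Irf3 had the highest levels in both genotypes, followed in both by Ddx58, Trex1, Ifi204, Mavs, Ifih1, Dhx58, Ikbke and Zbp1. The order differed between the genotypes only in its top pair, where Tbk1 led in Ctrl and Irf3 in Bub1 cKO. Without values per library, it cannot be said which neighbours in this order differ beyond their spread. Only Zbp1 had a mean under 1 TPM. The mean of the other 9 members was at least 1 TPM.

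**Figure D1:**
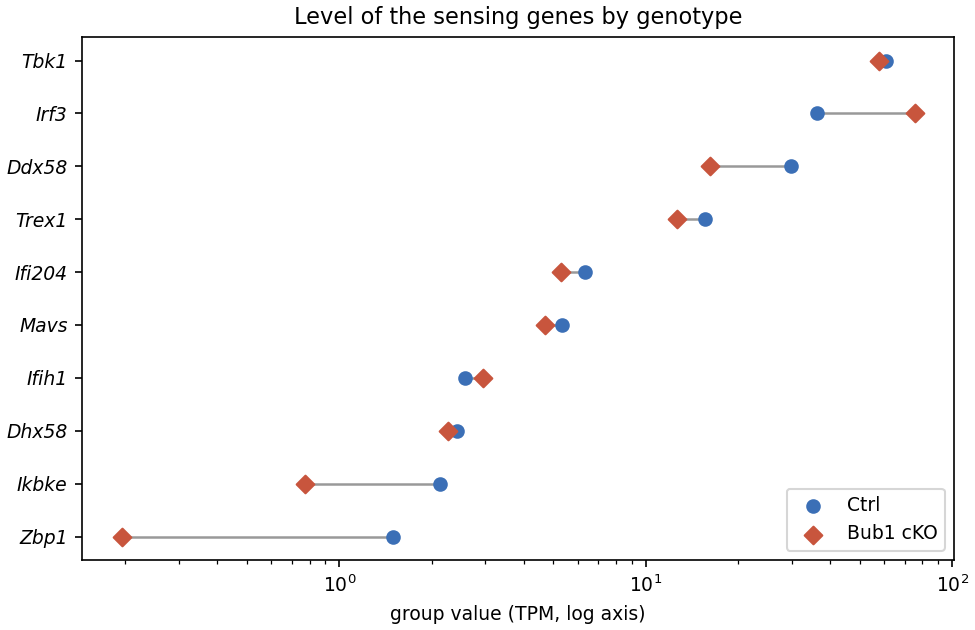
Level of each of the 10 sensing genes in Ctrl (blue circles) and Bub1 cKO (red diamonds), as the authors' 1 value per genotype, in TPM on a log axis. The points of Irf3, Ddx58, Ikbke and Zbp1 lie farthest apart, and those of Tbk1 (60.8 and 57.9 TPM) nearly coincide.

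Of the RNA helicases, Ddx58 was the most abundant. Ddx58 (ENSMUSG00000040296.15, chromosome 4, 40203773 to 40239828 on the minus strand, GRCm38) encodes RIG-I, which binds short double-stranded RNA with a 5′ triphosphate. It was at 29.8 TPM in Ctrl cells against 16.3 TPM in knockout cells by the authors' deposited table, so that the second value was 0.546 of the first. On the log2 scale the deposited change was -0.83, with an unadjusted p of 0.030 and an adjusted p of 0.923 by the authors' deposited table. A second estimate, the product of statistic and standard error, is called the test's own log2 change here, and the standard error refers to it. For Ddx58 this was -1.003, with a standard error of 0.46 and a 95% interval from -1.91 to -0.10. Ddx58 had the smallest p of the 10 members, and its difference did not hold up after adjustment over all genes.

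Ifih1 encodes MDA5, the sensor of long double-stranded RNA (ENSMUSG00000026896.14, chromosome 2, 62595798 to 62646255 on the minus strand). The authors' deposited table has it at 2.57 TPM in Ctrl cells against 2.94 TPM in knockout cells, a log2 change of 0.14, with an unadjusted p of 0.202. The statistic had the opposite sign (-1.28), and the test's own log2 change was -0.84, with a 95% interval from -2.12 to 0.45. The direction of Ifih1 was thus not settled by the authors' deposited table. Opposite signs of the 2 estimates were found in 9.50% of all genes, and in 12.3% of those whose mean reached 1 TPM.

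Dhx58 encodes LGP2, which modulates the other helicases (ENSMUSG00000017830.15, chromosome 11, 100694884 to 100704271 on the minus strand). Its values were 2.42 TPM in Ctrl cells against 2.26 TPM in knockout cells by the authors' deposited table (log2 change -0.07, adjusted p 1). The standard error of 1.12 was large, and the 95% interval for the test's own change spanned -2.24 to 2.14. Changes of 4-fold in either direction lie inside this interval, so its level in Bub1 cKO was poorly determined. An antisense gene, Dhx58os, overlaps it by 2637 bases. No use of strand in counting was given in the sources used here, so reads of the pair may not be told apart.

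The adaptor Mavs, which joins RIG-I and MDA5 to the kinases, had a small difference, and a 2-fold fall lies inside its 95% interval. Mavs (ENSMUSG00000037523.13, chromosome 2, 131234063 to 131248025 on the plus strand) was at 5.34 TPM in Ctrl cells against 4.69 TPM in knockout cells by the authors' deposited table. The deposited log2 change was -0.16 and did not pass (adjusted p 0.985 by the authors' deposited table). The test's own change had a standard error of 0.47 and a 95% interval from -1.09 to 0.76.

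The DNA-side members had small or poorly measured differences. Ifi204 encodes p204, a PYHIN protein that binds DNA and acts with STING (ENSMUSG00000073489.6, chromosome 1, 173747293 to 173766943 on the minus strand). It was at 6.34 TPM in Ctrl cells against 5.29 TPM in knockout cells, with a log2 change of -0.22 and an adjusted p of 0.985 by the authors' deposited table. A 95% interval for the test's own change spanned -1.53 to 1.05. Ifi204 belongs to a cluster of closely related genes, and the split of reads between copies is uncertain.

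The cluster around Ifi204 was read in full. Between 173350879 and 174031810 on chromosome 1 (GRCm38) lie 13 measured protein-coding genes of the PYHIN family, 7 of which had a mean of at least 1 TPM, and 6 of these 7 had a negative statistic. Mndal had the highest mean, at 166 TPM in Ctrl cells against 111 TPM in knockout cells, with an unadjusted p of 0.057 and an adjusted p of 0.985 by the authors' deposited table. Ifi203 was at 75.5 and 62.7 TPM and Ifi207 at 17.4 and 14.6 TPM by the authors' deposited table. Aim2, which builds an inflammasome on cytosolic DNA, was at 118 and 126 TPM, but its statistic was below 0 (-1.14) by the authors' deposited table. The gene that the file calls Mnda, named Ifi211 in GENCODE M21, was at 0.949 and 3.75 TPM and had the one positive statistic of the 7 (adjusted p = 0.985 by the authors' deposited table). Mndal spans Ifi211 and overlaps Ifi203, which reaches past its end, all on the same strand, so reads from the overlaps could be assigned to more than 1 of these genes. No gene of the cluster passed the authors' test.

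Zbp1 is the sensor of Z-form nucleic acid and an upstream activator of the necroptosis kinase RIPK3 (ENSMUSG00000027514.14, chromosome 2, 173206612 to 173218923 on the minus strand). It stood at 1.501 TPM in Ctrl cells against 0.195 TPM in knockout cells, a log2 change of -1.07 with an adjusted p of 0.985 by the authors' deposited table. Its standard error of 2.84 was the highest of the 10 members, and the 95% interval for the test's own change spanned -8.17 to 2.95. The ratio of the Zbp1 values, 0.130, was the most extreme of the members and also the least certain. Its partners in the cell death arm were better measured: Ripk3 was at 68.1 and 64.6 TPM, with an adjusted p of 0.985 by the authors' deposited table. Mlkl, the executioner of necroptosis, was at 10.6 and 12.0 TPM by the authors' deposited table.

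Trex1, the main 3′ exonuclease of cytosolic DNA, lies wholly inside another gene. Trex1 (ENSMUSG00000049734.9, chromosome 9, 109057933 to 109059734 on the minus strand) overlaps Atrip, a gene of the DNA damage checkpoint on the same strand, over all of its 1802 bases, and both annotations end at the same 3′ base. In a library that reads 3′ ends, tags of the pair cannot be told apart at that shared end. The 3′ end of Shisa5, on the opposite strand, lies 155 bases from that of Trex1. Shisa5 was at 72.8 TPM in Ctrl cells against 58.0 TPM in knockout cells (adjusted p 0.985 by the authors' deposited table). Trex1 was at 15.6 TPM in Ctrl cells against 12.6 TPM in knockout cells and Atrip at 4.65 and 7.21 TPM by the authors' deposited table. Their log2 changes were thus of opposite sign, -0.29 and 0.54, each with an adjusted p of 0.985 by the authors' deposited table. The sum of the Trex1 and Atrip values was 20.2 TPM in Ctrl cells against 19.8 TPM in knockout cells. If counts were divided by each gene's own length, this sum does not give the pooled tags of the pair.

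The kinases stood at different levels on the TPM scale. Tbk1, the main kinase for IRF3 in this pathway (ENSMUSG00000020115.3, chromosome 10, 121546455 to 121586787 on the minus strand), was at 60.8 TPM in Ctrl cells against 57.9 TPM in knockout cells by the authors' deposited table. The deposited log2 change was -0.07. The test's own estimate was 0.06; its standard error, 0.36, was the smallest of the 10 members, and it had a 95% interval from -0.64 to 0.75, which leaves out a 2-fold change in either direction. Ikbke, the inducible sister kinase (ENSMUSG00000042349.13, chromosome 1, 131254343 to 131279606 on the minus strand), was far lower, at 2.14 TPM in Ctrl cells against 0.773 TPM in knockout cells by the authors' deposited table. The change of Ikbke was -0.82 on the log2 scale, with an unadjusted p of 0.051 and an adjusted p of 0.985 by the authors' deposited table. For Ikbke the test's own log2 change of -1.57 lay farther from 0, with a 95% interval from -3.15 to 0.01. The deposited log2 change adds 1 TPM to both values and understates the change of genes at such low levels. Antisense genes overlap Ikbke by 1047 and 3420 bases.

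Irf3, the transcription factor at the end of the pathway, had the largest difference in TPM. Irf3 (ENSMUSG00000003184.15, chromosome 7, 44997648 to 45002848 on the plus strand) was at 36.3 TPM in Ctrl cells against 75.4 TPM in knockout cells by the authors' deposited table. The ratio was 2.08 and the deposited log2 change 1.03, yet the statistic was only 0.88 and the adjusted p 0.985 by the authors' deposited table. The test's own log2 change was 0.47, with a 95% interval from -0.58 to 1.52. The 2 estimates lay 1.05 standard errors apart for Irf3 and 1.49 for Ifih1, and under 1 for the other 8 members. A gap of more than 1 standard error was found in 10.7% of all genes. Irf3 overlaps Bcl2l12 on the opposite strand by 1065 bases at its 5′ end, and its 3′ end lies 99 bases from that of Scaf1. Bcl2l12 was at 4.55 and 2.88 TPM and Scaf1 at 2.17 and 2.36 TPM by the authors' deposited table.

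**Figure D2:**
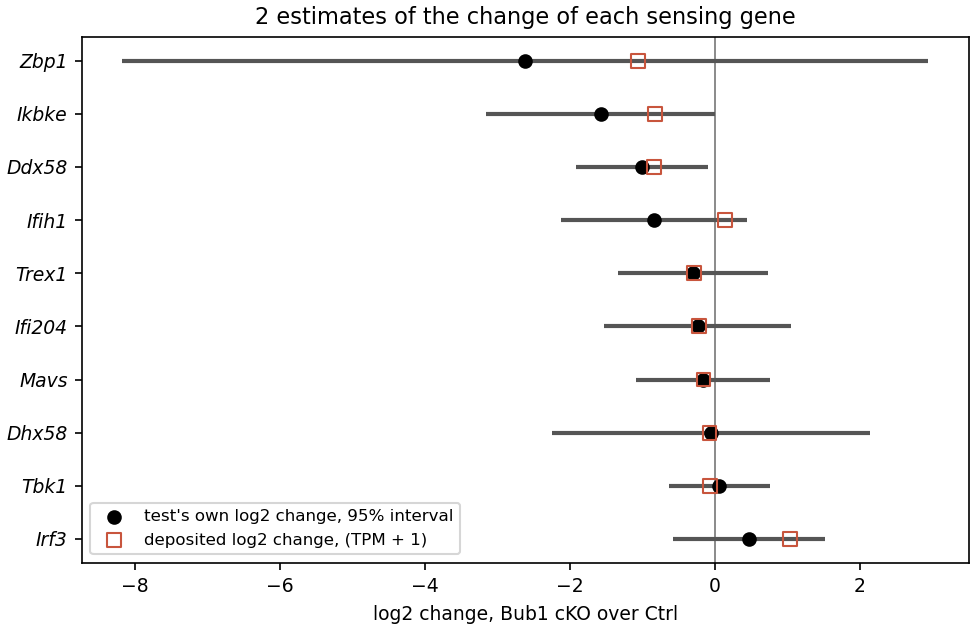
Log2 change of each sensing gene, Bub1 cKO over Ctrl. Black points are the test's own change with its 95% interval (bars), and open squares are the deposited change computed from TPM + 1. The interval of Ddx58 (-1.91 to -0.10) alone leaves out 0 before adjustment, and the estimates lie on opposite sides of 0 for Ifih1 and Tbk1.

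The precision of the authors' test bounded what could be detected. The smallest statistic, in absolute value, among the 29 genes past the threshold was 3.92, and the largest among the members was 2.17 (Ddx58). At its own standard error, a member would have reached 3.92 only with a test's own log2 change of at least 1.39 for Tbk1, 1.81 for Ddx58, 2.10 for Irf3 and 4.38 for Dhx58. Standard errors of the 4 members between 10 and 100 TPM (Ddx58, Trex1, Tbk1 and Irf3) were all above 0.346, the median of the 4101 genes at that level. Among the 5 members between 1 and 10 TPM, Dhx58 and Ikbke were above the median of 0.705 for their level. The cut-off itself lay between 3.92 and 3.67, the statistic of Nfatc1, which did not pass. Differences a little smaller than these might thus have passed, but much smaller ones could not. A missed threshold does not show equal levels.

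**Figure D3:**
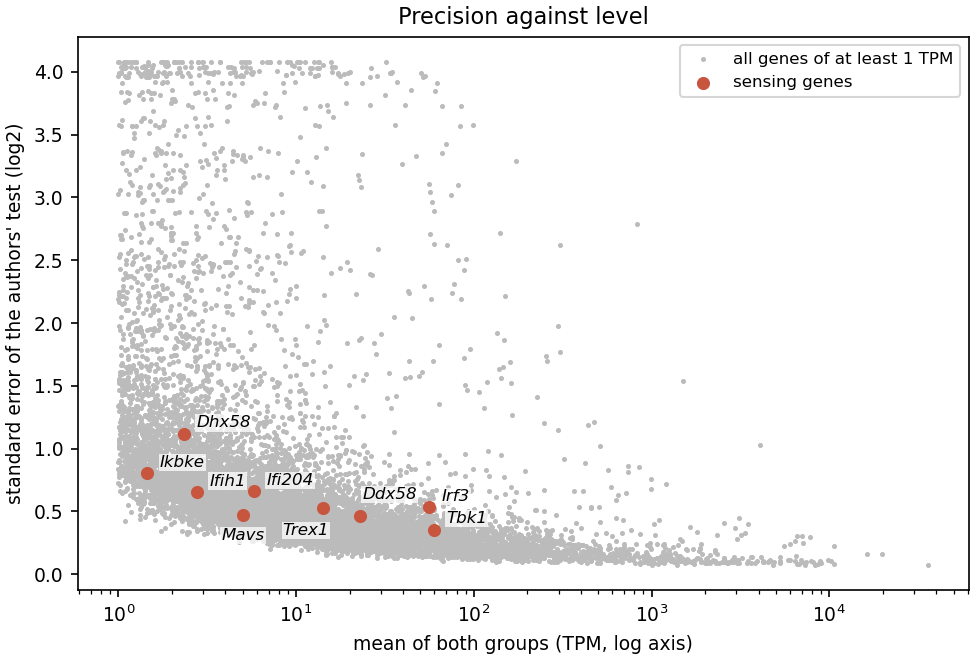
Standard error of the authors' test (log2 scale) against the mean of both groups (TPM, log axis), for genes of at least 1 TPM. The 9 sensing genes shown (red) lie between 0.355 (Tbk1) and 1.12 (Dhx58), and Zbp1, below 1 TPM, is not shown.

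The wider pathway was read from a list of 84 genes of RNA sensing, DNA sensing and interferon induction, of which 82 were measured here. Ifnb1, the interferon-beta gene, and Rnf125 were not analysed here. The authors' deposited test called 0 of the 82 at an adjusted p under 0.05, beside 0.181% of all genes. At an unadjusted p under 0.05 there were 6, with 3 higher and 3 lower in Bub1 cKO. Over all genes these shares were 2.35% higher and 2.46% lower. Their median deposited log2 change was -0.08, and 49 of the 82 statistics were negative.

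The 6 with the smallest p came from RNA sensing partners (Ddx21, Tomm70a and Ppia), DNA sensing (Lrrfip1) and RNA-binding effectors (Oas2 and Oas1a). Ddx21, a nucleolar helicase that also binds viral RNA, was at 35.0 TPM in Ctrl cells against 52.4 TPM in knockout cells, with an adjusted p of 0.275 by the authors' deposited table. Tomm70a, the mitochondrial import receptor that can bind MAVS, was at 18.4 and 28.1 TPM, with an adjusted p of 0.687 by the authors' deposited table. Lrrfip1, a nucleic acid-binding protein, was at 25.6 and 38.1 TPM by the authors' deposited table. Ppia, the abundant prolyl isomerase cyclophilin A, was at 2869 and 2465 TPM by the authors' deposited table, with an adjusted p of 0.923. Oas2 and Oas1a, synthases of the 2′,5′-oligoadenylates that activate RNase L, made up the rest. Oas2 was at 2.10 and 0.657 TPM and Oas1a at 3.85 and 0.908 TPM by the authors' deposited table, with adjusted p of 0.861 and 0.985. Oas1g, of the same family, went the other way, at 1.36 and 3.44 TPM by the authors' deposited table.

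Among partners of the RNA helicases, 10 of 17 statistics were negative. Trim25, a ubiquitin ligase for RIG-I, was at 10.0 TPM in Ctrl cells against 9.45 TPM in knockout cells by the authors' deposited table. In the DNA arm, 13 of 20 statistics were negative. The cGAS gene Mb21d1 was at 5.90 and 4.34 TPM, a log2 change of -0.37 with an adjusted p of 0.985 by the authors' deposited table. Tmem173, which encodes STING, was at 5.32 and 4.24 TPM by the authors' deposited table (log2 change -0.27, adjusted p 0.985). The cGAS and STING genes thus had levels close to that of Mavs on the TPM scale, and neither passed the test.

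Scaffolds that bring the kinases to the adaptors were mixed, with 6 of 13 statistics negative. Traf3 was at 5.24 TPM in Ctrl cells against 4.29 TPM in knockout cells, and Tank, a binding partner of TBK1, at 28.8 and 29.95 TPM by the authors' deposited table. Besides Irf3, the list holds 4 genes of the interferon regulatory factor family, and all 4 had a negative statistic while that of Irf3 was positive. Their median was -0.45 for the deposited log2 change and -0.56 for the test's own. By the deposited change 3 of the 4 were lower in Bub1 cKO. Over all genes 50.1% of statistics were negative. This family was not among the roles fixed for the list. Irf9, a subunit of the complex that relays interferon signals, stood at 13.0 TPM in Ctrl cells and 7.00 TPM in knockout cells (unadjusted p 0.052), and Irf1 at 14.5 and 8.77 TPM (unadjusted p 0.082), by the authors' deposited table. Irf5 was at 22.1 and 18.8 TPM by the authors' deposited table. Irf7, the interferon-induced relative of Irf3, was at 2.91 and 5.68 TPM by the authors' deposited table, so that its statistic (-0.20) and its deposited change differed in sign. The adjusted p was 0.985 for each of the 4, and none passed the test.

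Of the nucleases and other enzymes that limit self nucleic acid, 5 of 9 had a negative statistic. Adar, which edits double-stranded RNA so that MDA5 does not bind it, was at 3.12 TPM in Ctrl cells against 2.71 TPM in knockout cells by the authors' deposited table. Samhd1, a dNTP hydrolase, was at 51.3 and 40.5 TPM by the authors' deposited table (log2 change -0.33, adjusted p 0.985). The OAS family was not among the roles fixed for the list either. In it, 5 of 6 members had a negative statistic. Their median deposited log2 change, over all 6, was -0.92, at levels under 5 TPM in both genotypes. Interferon read-out transcripts did not share this sign: 3 of the 4 measured had a positive statistic. Isg15, a ubiquitin-like protein induced by interferon, was at 17.3 and 21.9 TPM by the authors' deposited table, with an adjusted p of 0.985.

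**Figure D4:**
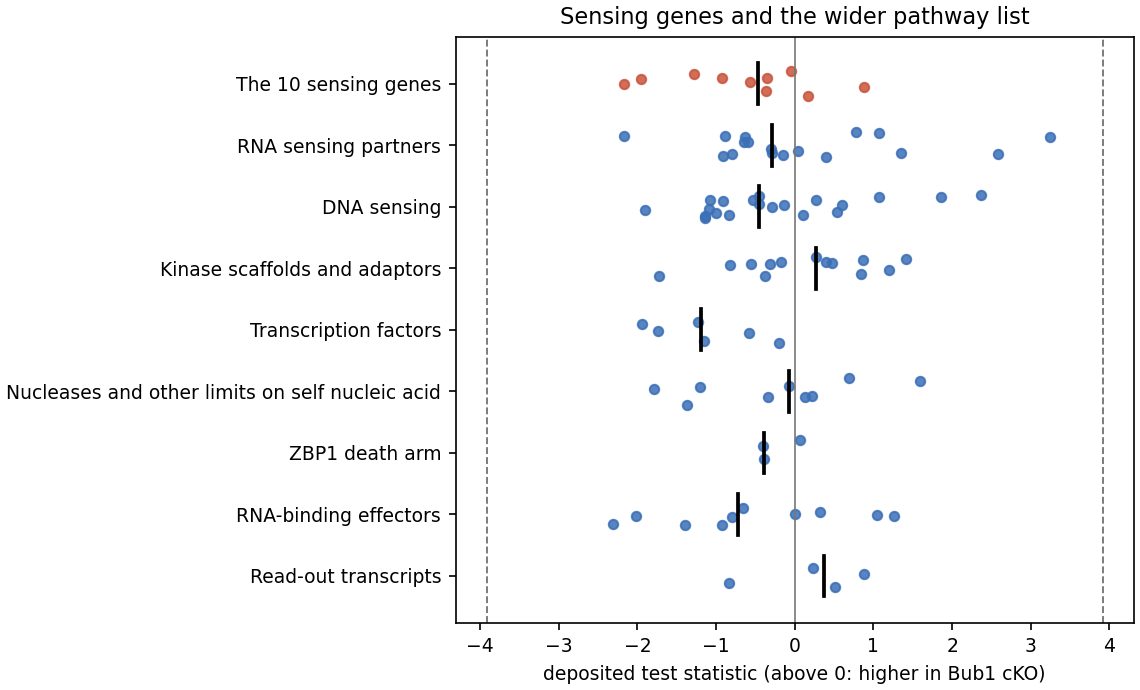
Deposited test statistic of the 10 sensing genes (red) and of the 82 measured genes of the wider list by role (blue). Points are genes, black bars are medians, and dashed lines mark 3.92 on either side of 0, the smallest absolute statistic among the 29 genes past the threshold; no point reaches them.

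The promoter letters were also read across the wider list. RefSeq windows were matched for 69 of the 82 genes, and the paired GAAA motif was found in 17 of them, or 24.6%. Counted by gene in the same way, it was in 3.87% of the 7979 matched symbols with a mean of at least 1 TPM. By window it was in 3.44% of all windows. The list includes genes chosen because interferon induces them, so its share is only a description. Of these 17 genes, 10 had a negative and 7 a positive statistic. The 52 genes without it had 31 negative statistics, so the shares were 58.8% with the letters and 59.6% without. Median deposited log2 changes were -0.09 with the letters and -0.03 without. Among all 7979 matched symbols with a mean of at least 1 TPM, 179 of the 309 with the motif had a negative statistic, or 57.9%, against 50.4% of the 7670 without. There the medians were -0.06 and -0.01, and no test was made on these shares. Oas1a and Ifit1 both hold the motif, and their log2 changes were -1.35 and 0.59 by the authors' deposited table. The 2 sister helicases that share it, Ddx58 and Ifih1, had a test's own log2 change of -1.003 and -0.84, but deposited changes of -0.83 and 0.14.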

How the data were processed

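The only file was the deposited result of the authors' comparison of knockout with control cells, and its header names RaNA-seq, a web service. Per the labels, 25 ng of total RNA went into each QuantSeq library, which is read from the 3' end. Quantifier, genome build, annotation and statistical test were not given in the sources used here. Expression columns were deposited without a unit and taken as TPM from their sums. The deposited log2 change is, within 0.002 for all 15982 genes, the log2 ratio of the group values after 1 was added to each. Statistic and standard error are scores of the authors' own test. The deposited p-value follows from the statistic as a normal 2-sided tail for 15974 genes, within 0.0006 on both. The test's own log2 change was computed as statistic times standard error, with a normal 95% interval. The members and lists were chosen with earlier results of these data known. Named genes are the 10 members, 12 pathway genes fixed by role (of which Ifnb1 was not analysed) and the 6 of the list with a mean of at least 1 TPM and the smallest p; other names were chosen after their values were seen. No gene is named for a like pattern, since 2 values per gene give none. No values per library were at hand, so no model was fitted again. Positions come from GENCODE M21 (GRCm38), whose versioned IDs match all 10 members, and promoters from RefSeq (GRCm38.p6). Markers of B cells, conventional dendritic cells and stromal cells summed to under 3 TPM in each genotype. Alternatives were other pseudocounts, other p-value adjustments and the test's own change. The adjustment was tested on simulated data. Python 3.11.15, pandas 2.3.3 and scipy 1.17.1 were used. One gene of the wider list is not reported by name here.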

Additional observations from a re-analysis of the deposited data

How the results depend on the processing

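The count of members past the threshold stayed 0, and that of the wider list 0, at an adjusted p under 0.1 and when p was adjusted again (Benjamini-Hochberg) over genes whose mean reached 1 TPM or lay above the median mean. The lowest adjusted p under these was 0.595 among the members and 0.114 in the wider list. Of 45 alternative values for single members, 43 kept their direction, but another pseudocount or another adjustment cannot reverse a sign. Only the test's own log2 change, computed for all 10 members, could do so. The sign reversed only for Ifih1 (0.14 to -0.84) and Tbk1 (-0.07 to 0.059), each with the test's own log2 change in place of the deposited one; the cause was not tested. The median log2 change ran from -0.27 to -0.12 for the members and from -0.15 to -0.06 for the wider list over pseudocounts of 0.1, 1 and 5, the filter at 1 TPM, and the test's own change, which was added for the medians after seeing the data. No paired analysis was possible because the table holds 1 value per genotype, and leaving out each replicate was not run for the same reason. Depth is unknown, so only the authors' standard errors bound precision.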

Other observations

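Several genes of the wider sensing list had TPM values far apart beside a statistic near 0. Xrcc6, which encodes the DNA end-binding protein Ku70, had 30.4 TPM in Ctrl cells against 10.7 TPM in knockout cells (log2 change -1.42), while its statistic was 0.11 by the authors' deposited table. Rnaseh2c, a subunit of the ribonuclease that removes RNA from RNA:DNA hybrids, was at 328 and 640 TPM with a statistic of 0.69 by the authors' deposited table. The helicase gene Ddx3x was at 42.0 and 60.2 TPM, a log2 change of 0.51 by the authors' deposited table against a test's own change of 0.10, which lie 3.00 standard errors apart. Such gaps of more than 1 standard error were found in 10 of the 82 measured genes of the list, or 12.2%, and in 10.7% of all genes. These genes were chosen after their values were seen.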
